A study of Mus musculus with 16 samples.

Results

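Fbxw7, Runx1, Nfe2l2, Pparg and Rxra are 5 of the 23337 genes counted, and they were followed here through mouse CD4+ T cells that had received a mimic of miR-27a, miR-23a or miR-24, or a control mimic. The first 4 are reported targets of miR-27, and Rxra is a reported target that had been seen to move the other way in these data. The genes were chosen for how specific their change was to miR-27a among all 4 groups. Their values in every comparison are therefore given as a description, and nothing is read from the calls made for them. All 5 passed the filter on low counts that left 12952 genes for testing. The gene lists tested further below were also chosen with earlier results of these data known, so their p-values are not independent support.

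The study asked which genes respond to single miRNAs of 1 cluster in T helper 2 conditions. All 4 groups, the control included, came from C57BL/6 mice of the genotype Dgcr8f/f Tbet-/- CD4-cre: Dgcr8, a subunit of the complex that cuts miRNA precursors, was deleted by a Cre that the Cd4 promoter drives in T cells, and the transcription factor T-bet (gene Tbx21) was absent. Splenic and lymph node CD4+ T cells were activated through CD3 and CD28 for 3 days with IL-4 at 10 U/ml, then kept for 2 days with IL-2 at 20 U/ml, and received 500 nM mimic by electroporation on days 1 and 4. Live cells positive for the YFP reporter were sorted, and each group has 4 libraries, numbered 1 to 4. Neither the mouse behind each library nor its age is given in the labels, so the p-values measure the spread between libraries, which may be partly technical.

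The depth was 2120408 to 13714841 gene reads in 15 libraries and 51474 in control replicate 1, where 1 read equals 16.3 CPM (reads scaled to a common library size with TMM factors). Values from control replicate 1 are therefore given with their reads. Of the CD4 T cell markers 5 of 6 were counted, with a summed level of 2385 to 4481 CPM, while no list of markers for CD8 T cells, B cells, myeloid cells, dendritic cells, NK cells or adipocytes passed 35.7 CPM in any library. Over the 15 deeper libraries Tbx21 was at most 5.20 CPM and Dgcr8 was 32.5 to 58.4 CPM. Counts over a whole gene do not check a deletion of part of it.

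An animal miRNA guides Argonaute to mRNAs mainly through its seed, the bases near its 5′ end, which pair with short sites in the 3′ untranslated region (UTR), and such pairing lowers the mRNA or its translation. The miR-27 family is transcribed together with miR-23 and miR-24 and is known as a brake on fat cell differentiation through the nuclear receptor PPARγ and on several regulators of T cell differentiation. The strand and sequence of the mimics are not given in the labels. The RefSeq sequences of the 3p arms, the arms usually taken as the active ones, are shown because their seeds define the sites below. Capitals mark the seed, bases 2 to 8 counted from the 5′ end.

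miR-27a-3p: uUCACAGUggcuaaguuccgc
miR-23a-3p: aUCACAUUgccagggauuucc
miR-24-3p: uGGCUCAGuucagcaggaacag

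On build GRCm38.p6 these lie on the plus strand at chr8:84208727-84208747 for miR-27a, chr8:84208563-84208583 for miR-23a and chr8:84208875-84208896 for miR-24, which has a second copy at chr13:63301251-63301272. The seeds of miR-27a and miR-23a differ at 1 of 7 bases, G7U, with miR-27a first. The seed of miR-24 is unrelated.

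Sites were searched on the transcript strand in the longest annotated 3′ UTR of each gene (GENCODE M21, GRCm38). An 8mer is ACTGTGAA for miR-27a, AATGTGAA for miR-23a and CTGAGCCA for miR-24. A 7mer-m8 lacks the last base of the 8mer and a 7mer-A1 lacks the first, and each position was counted once, as its longest type. All 5 genes held a miR-27a site and 4 of 5 held an 8mer, beside 30.0% and 6.66% of the 11022 tested genes with a UTR that could be searched. The genes were picked as reported targets, so this is a property of the choice. The miR-27a sites are shown with 30 bases each, since they are where the mimic could pair, and capitals mark the match.

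Fbxw7 site 1: ttaaaacaattACTGTGAAttgtttttgta
Fbxw7 site 2: actcaagctgaACTGTGAAagtggttaaca
Runx1 site 1: cccggagggaaACTGTGAAtgcttctgatt
Runx1 site 2: atttagcaatgCTGTGAAtaaaagaaagat
Nfe2l2 site: taaaacttcctACTGTGAtgtgaaatgcag
Pparg site: ctaagaaatttACTGTGAAaaagcatttaa
Rxra site: gccggcctctgACTGTGAActgactcccca

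The Fbxw7 UTR is 1657 nt long, and its 8mers lie 501 nt (chr3:84978042-84978049, plus strand) and 1414 nt (chr3:84978955-84978962) after the stop codon. In Runx1, with 4189 nt, an 8mer at 99 nt (chr16:92605549-92605556, minus strand) is followed by a 7mer-A1 at 126 nt (chr16:92605523-92605529). Nfe2l2 has a UTR of 448 nt with a 7mer-m8 at 60 nt (chr2:75675895-75675901, minus strand). In Pparg, the shortest at 204 nt, the 8mer lies at 88 nt (chr6:115490283-115490290, plus strand). Rxra, with 3269 nt, has its 8mer at 3112 nt (chr2:27762800-27762807, plus strand), only 150 nt from the annotated UTR end.

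Sites for the other mimics were fewer. In Nfe2l2 a miR-23a 7mer-A1, ATGTGAA, begins on the last capital of the sequence above, so that it overlaps the miR-27a site by 1 base (chr2:75675889-75675895). Runx1 has a pair of miR-23a 7mers, at 1077 and 4154 nt. For miR-24, Rxra has 8mers at 1691 and 1739 nt and Fbxw7 a 7mer-A1 at 957 nt. Pparg has a site for neither miR-23a nor miR-24. Of all tested genes searched, 25.5% held a miR-23a site and 27.1% a miR-24 site. The sites depend on the transcript: Pparg has its miR-27a site in 3 of 3 coding transcripts with a UTR, Fbxw7 and Runx1 in 3 of 4, and Rxra in 1 of 4. Which UTRs these cells use was not measured.

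**Figure D1:**
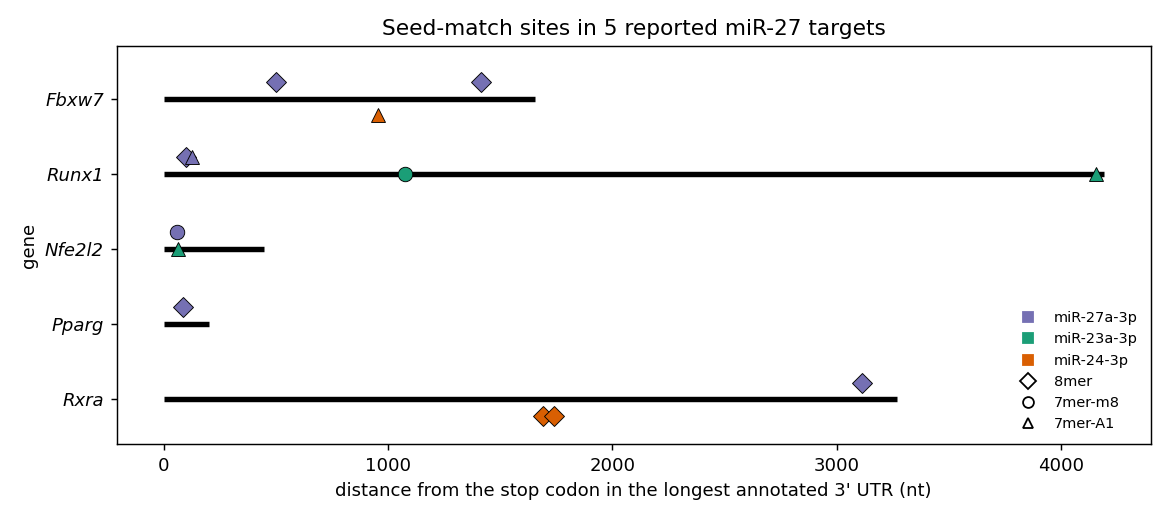
Seed-match sites along the longest annotated 3′ UTR of the 5 genes. The x axis is the distance from the stop codon in nt, black bars are UTRs, colours are miRNAs and symbols are site types. The Nfe2l2 sites for miR-27a and miR-23a lie at 60 and 66 nt, and the Rxra site for miR-27a lies near the UTR end.

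With the miR-27a mimic, Fbxw7, Runx1, Nfe2l2 and Pparg were lower than with the control mimic and Rxra was higher. All fold changes are from edgeR's quasi-likelihood fit of all 16 libraries with the replicate number as a block, and a gene is called at a Benjamini-Hochberg adjusted p under 0.05. Of all genes tested, 3.07% were called between miR-27a and control, 1.32% as lower and 1.75% as higher. All 5 genes were among those calls with the block and 0 of 5 without it, where 0.170% of genes were called. Groups that did not overlap, with miR-27a lower, were found for 2 of the 5 genes and 2.21% of all. The calls rest on few libraries. Over the 16 fits that each left out 1 library, the call ended in 4 fits for Fbxw7, 5 for Runx1, 7 for Nfe2l2, 1 for Pparg and 9 for Rxra. DESeq2 called 5 of 5 and limma with sample weights 4, all but Rxra. The genes were chosen on these groups, so nothing is read from these counts. Against control, 0.425% of genes were called for miR-23a and 4.56% for miR-24. The share was 2.95% between miR-27a and miR-23a, 4.42% between miR-27a and miR-24, and 5.38% between miR-24 and miR-23a. In the 3 comparisons without miR-27a libraries, 1 of the 5 genes was called in each with the block and 0 without it, where 0.131% of genes were called for miR-23a and 0.849% for miR-24, each against control, and 1.10% between these mimics. These were Nfe2l2 with miR-23a, Runx1 with miR-24 and Nfe2l2 between the mimics, and the calls ended in 5, 6 and 2 of 16 fits without 1 library. The choice used all 4 groups, so nothing is read from these calls either.

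**Figure D2:**
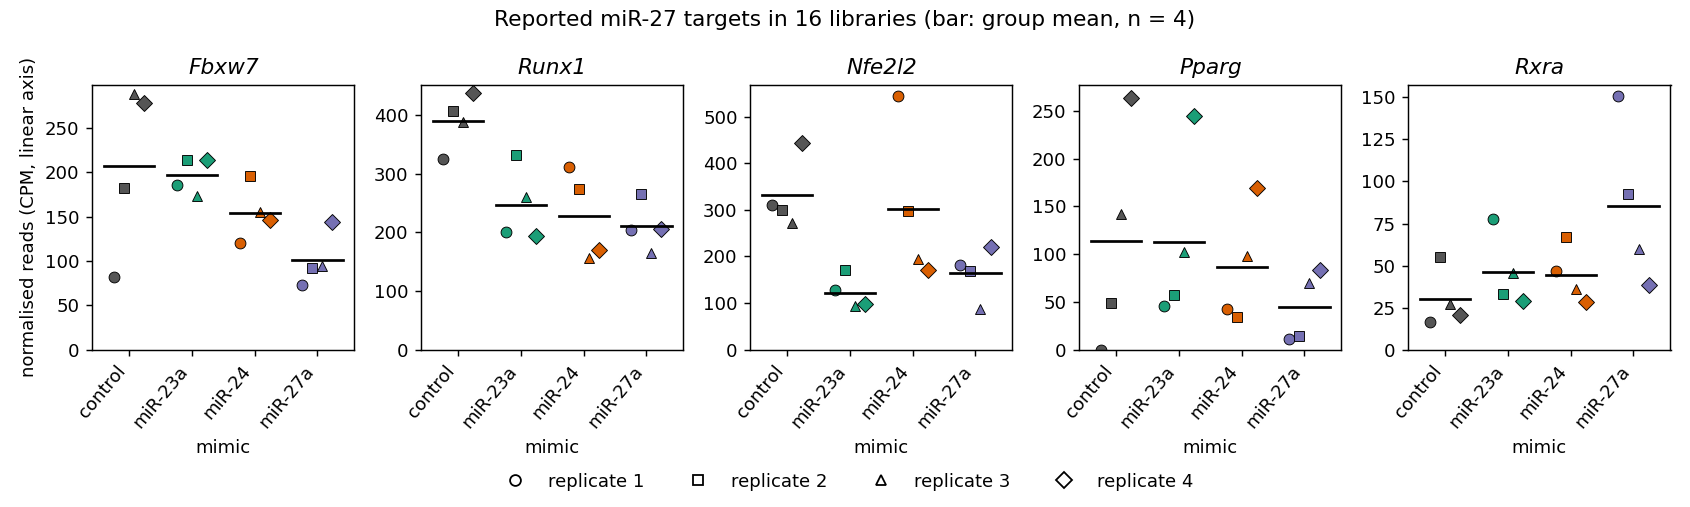
Levels of the 5 genes in 16 libraries, in CPM on a linear axis from 0. Each point is a library, its shape the replicate number, and the horizontal bar is the mean of 4. Fbxw7 and Pparg have their lowest mean with miR-27a, Nfe2l2 with miR-23a, and Rxra its highest with miR-27a.

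Fbxw7 encodes the F-box protein that brings cyclin E, Myc, Notch and Jun to the SCF ubiquitin ligase for degradation. Its level in replicates 1 to 4 was 73.2, 91.6, 93.9 and 144 CPM with miR-27a, against 81.4 (5 reads), 183, 288 and 278 CPM with control. The miR-23a libraries had 186, 213, 173 and 214 CPM, and the miR-24 libraries 120, 196, 155 and 146 CPM. Every miR-27a library was lower than every miR-23a library, as for 3.06% of genes tested, and lower than every control library other than replicate 1. The order of the means was control (207 ± 96.5 CPM), miR-23a (197 ± 20.5), miR-24 (154 ± 31.4) and miR-27a (101 ± 30.4; SD, n = 4 each). Without control replicate 1 the control mean was 249 ± 58.1 CPM (SD, n = 3).

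The log2 fold change of Fbxw7 with miR-27a was -1.13 ± 0.23 (SE) against control, which is 2.19-fold lower. Fbxw7 was 2.01-fold lower than with miR-23a (SE 0.22 on the log2 scale) and its log2 difference from miR-24 was -0.64 ± 0.22, and all same-numbered pairs were lower, 4 of 4 in each comparison. Such a run of 4 of 4 lower pairs was found in 10.8% of genes tested against control, 11.1% against miR-23a and 13.5% against miR-24. The replicate 4 pair with miR-24 was nearly equal (-0.02), and the replicate 1 pair with control (-0.15) rests on 5 control reads. The log2 fold change of Fbxw7 against control was -0.12 ± 0.23 with miR-23a and -0.49 ± 0.23 with miR-24. Against each other, miR-24 and miR-23a differed by -0.36 ± 0.22, lower in 4 of 4 pairs, as for 14.8% of genes.

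Pparg encodes PPARγ, a fatty acid-sensing nuclear receptor that drives adipocyte differentiation and is also induced in T helper 2 cells. In replicates 1 to 4 its level with miR-27a was 11.0, 14.6, 69.4 and 83.0 CPM. The control libraries had 0 reads, 48.8, 142 and 264 CPM, where 3 reads in replicate 1 would be 48.8 CPM. With miR-23a it was 46.0, 56.9, 102 and 245 CPM, and with miR-24 42.4, 34.7, 97.7 and 169 CPM. Replicates 3 and 4 were higher than replicates 1 and 2 in 4 of 4 groups, so the groups overlap although same-numbered libraries differ. Adipocyte markers were at most 0.528 CPM in sum and myeloid markers at most 17.8 CPM. Adipoq, Plin1 and Marco had 0 reads in every library. Of the same lists, Itgam reached 17.7 CPM, and Csf1r had 33, Lyz2 15 and Cfd 17 reads over all libraries.

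Within replicate numbers, Pparg had the most negative fold change of the 5 genes with miR-27a against control. Its log2 fold change was -1.47 ± 0.27 against control, 2.76-fold lower, -1.47 ± 0.26 against miR-23a and -1.10 ± 0.26 against miR-24. It was lower in 4 of 4 pairs against miR-23a and against miR-24, and in 3 of 4 against control, where the exception is the control library with 0 reads. Lower values in 4 of 4 pairs were found in 11.1% of genes tested against miR-23a and 13.5% against miR-24. Without the block the log2 fold change against control was -1.54 with an SE of 0.80, about the same size with a wider error. With the other mimics the log2 fold changes against control were 0.00 ± 0.28 with miR-23a and -0.37 ± 0.27 with miR-24. Between them, miR-24 against miR-23a gave -0.36 ± 0.25, lower in 4 of 4 pairs, as for 14.8% of genes.

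Nfe2l2 encodes Nrf2, the transcription factor that induces antioxidant and detoxifying enzymes and is held in check by Keap1. Its level was 182, 169, 86.7 and 220 CPM with miR-27a and 128, 171, 92.6 and 96.9 CPM with miR-23a. The control libraries had 309 (19 reads), 301, 272 and 443 CPM, and the miR-24 libraries 545, 298, 195 and 172 CPM. All miR-23a and all miR-27a libraries were below all control libraries. All miR-24 libraries were above all miR-23a libraries, the closest at 172 and 171 CPM, while the miR-24 and miR-27a libraries overlapped. In order of the mean, control (331 ± 76.1 CPM) and miR-24 (302 ± 171) overlapped, as did miR-27a (164 ± 56.2) and miR-23a (122 ± 36.2; SD, n = 4 each).

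Nfe2l2 was lower with miR-23a as well. Its log2 fold change was -1.52 ± 0.29 with miR-23a, 2.87-fold lower than control, in a comparison where 0.386% of genes were called lower and 2.02% had groups that did not overlap in that direction. With miR-27a it was -1.12 ± 0.28, and miR-27a against miR-23a gave 0.40 ± 0.28 with 2 of 4 pairs in each direction. With miR-24 it was -0.28 ± 0.28 against control. The comparisons with control share the control libraries. Between miR-27a and miR-24 the log2 difference of Nfe2l2 was -0.85 ± 0.28, lower with miR-27a in 3 of 4 pairs.

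Between miR-24 and miR-23a, Nfe2l2 was 2.37-fold higher with miR-24, a log2 difference of 1.24 ± 0.28. It was higher in 4 of 4 pairs, as for 14.1% of genes. In that comparison 2.65% of genes were called higher, and 3.76% had all miR-24 libraries above all miR-23a libraries.

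Runx1 encodes a transcription factor that binds DNA with Cbfb and controls T cell development, Cd4 silencing and cytokine genes. Its level was 205, 265, 165 and 206 CPM with miR-27a, 201, 332, 260 and 194 CPM with miR-23a, and 311, 274, 156 and 170 CPM with miR-24. The control libraries had 326 (20 reads), 406, 388 and 437 CPM. All miR-27a and miR-24 libraries were below all control libraries, and the miR-23a libraries were below all but control replicate 1. The 3 mimic groups overlapped one another, with means of 210 ± 41.4 CPM for miR-27a, 228 ± 76.5 for miR-24 and 247 ± 64.2 for miR-23a, against 389 ± 47.1 for control (SD, n = 4 each).

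The log2 fold changes of Runx1 against control were -0.95 ± 0.22 with miR-27a, which is 1.93-fold lower, -0.85 ± 0.22 with miR-24 and -0.72 ± 0.21 with miR-23a. All 3 share the control libraries. In the miR-24 comparison 2.25% of genes were called lower, and 2.74% had groups that did not overlap in that direction. Between mimics the log2 differences were -0.23 ± 0.21 for miR-27a against miR-23a, -0.10 ± 0.21 for miR-27a against miR-24 and -0.13 ± 0.21 for miR-24 against miR-23a. Runx1 shares 106 exonic bases with the antisense gene Gm26626, and the strand setting of the counting is not given.

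Rxra encodes RXRα, the obligate partner of PPARγ and of the retinoic acid, vitamin D and liver X receptors. Its level in replicates 1 to 4 was 151, 92.5, 60.1 and 38.4 CPM with miR-27a and 16.3 (1 read), 55.1, 27.2 and 20.9 CPM with control. It was 77.7, 33.0, 45.5 and 28.7 CPM with miR-23a and 46.8, 67.1, 36.0 and 28.4 CPM with miR-24. The miR-27a libraries spread widely and overlapped each other group, yet each was above the library of the same number in every other group. The means were 85.4 ± 48.8 CPM with miR-27a, 46.2 ± 22.2 for miR-23a, 44.6 ± 16.8 for miR-24 and 29.9 ± 17.4 for control (SD, n = 4 each).

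The log2 fold change of Rxra with miR-27a was 1.11 ± 0.29 against control, 2.16-fold higher, 0.78 ± 0.26 against miR-23a and 0.82 ± 0.26 against miR-24. Higher values in 4 of 4 pairs were found in 19.0% of genes tested against control, 12.3% against miR-23a and 12.8% against miR-24. With the other mimics the log2 fold changes were 0.34 ± 0.28 with miR-23a and 0.29 ± 0.28 with miR-24, for which its UTR holds 8mers. Between them, miR-24 and miR-23a differed by -0.04 ± 0.26.

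**Figure D3:**
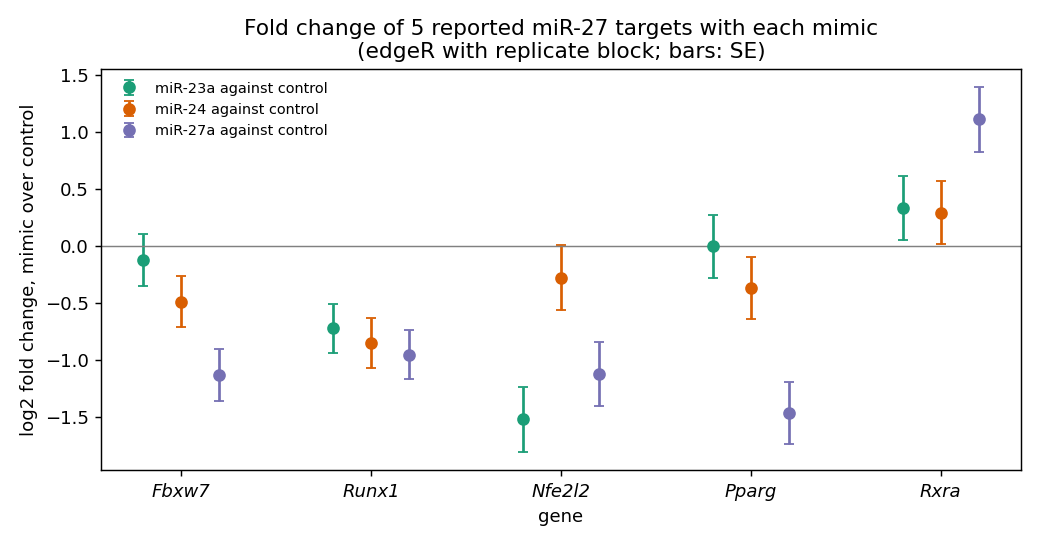
Log2 fold changes of the 5 genes with each mimic against control, from the edgeR fit with the replicate block. Points are estimates and bars are SE. Fbxw7 (-1.13) and Pparg (-1.47) were lowest with miR-27a, Nfe2l2 with miR-23a (-1.52), Runx1 was low with all 3 mimics, and Rxra was highest with miR-27a (1.11).

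The genes also varied with the replicate number. Group means over all libraries were removed, and the deviation of control replicate 1 itself was then left out. The control mean thus still held this library, with 0 reads of Pparg, which raised the deviations of the other control libraries for Pparg. Pparg deviated by -1.06 and -0.46 on the log2 scale in replicates 1 and 2 and by 1.07 and 1.87 in replicates 3 and 4. Rxra ran the other way, with 0.67, 0.41, -0.11 and -0.62. The largest deviation was 0.30 for Fbxw7 and for Runx1, and -0.48 for Nfe2l2. With replicate means removed instead, over 15 libraries, Pearson's r was 0.857 between Fbxw7 and Pparg, -0.865 between Pparg and Rxra, and 0.255 between Pparg and Nfe2l2. These points share the mimic groups and the depth of each library, and the r values are a description.

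By the same measure, over 7547 genes, the genes most like Fbxw7 were Ppp1r3f (r = 0.944) and Alg11 (0.940), and those most like Pparg were Snap29 (0.928) and Usp25 (0.922). For Runx1 they were Gcc2 (0.966) and Cd96 (0.959), for Nfe2l2 Gxylt1 (0.974) and Uhrf1bp1l (0.956), and for Rxra Tmco3 (0.906) and Endod1 (0.904). Of these 10 genes, 7 held a miR-27a site and 6 an 8mer in the longest UTR, beside 30.0% and 6.66% of the tested genes searched. They were picked in the same libraries for following genes chosen on miR-27a, so nothing is read from this count. Cd96, Uhrf1bp1l and Endod1 held none.

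The direct partners of the 5 proteins were not called by edgeR in any of the 6 comparisons, nor by DESeq2 or limma. At an unadjusted p under 0.05, edgeR had 2 of 6 with miR-27a and 0 with miR-23a and 1 with miR-24 against control. Over all genes tested the shares at this threshold were 21.8%, 17.0% and 20.3% in the same order. The unadjusted counts of the lists below are to be read beside these shares. With miR-27a against control the log2 fold change was 0.18 ± 0.24 for Keap1, the adaptor that marks Nrf2 for degradation, and 0.13 ± 0.17 for Cbfb. It was 0.03 ± 0.17 for Skp1a and -0.11 ± 0.20 for Cul1, the core of the SCF ligase. Runx3, the paralogue of Runx1 in effector T cells, had -0.49 ± 0.21 (edgeR adjusted p = 0.188). Rxrb, the second RXR of these cells, had 1.00 ± 0.44 (edgeR adjusted p = 0.199).

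Of 21 tested genes of the SCF ligase and its Fbxw7 substrates, edgeR called 0 with miR-27a against control (2 by DESeq2 and 1 by limma). At an unadjusted p under 0.05 there were 7, beside 21.8% of all genes. The median log2 fold change was 0.02, as over all genes (0.02). With miR-24, 2 fell and 0 rose against control, where 2.25% of all genes were called lower and 2.32% higher. They were Klf2, a quiescence and trafficking factor (-1.44 ± 0.25, edgeR adjusted p = 0.00366), and Myb (-1.10 ± 0.27, edgeR adjusted p = 0.0289). Klf2 kept its call in all 16 fits without 1 library. Myb lost it in 5, those leaving out miR-24 replicate 2, 3 or 4 or control replicate 3 or 4 (largest adjusted p 0.195). With miR-23a against control edgeR called 0 of 21 (4 at an unadjusted p under 0.05, 0 by DESeq2 and limma).

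Of 17 tested Runx partners and reported Runx targets, edgeR called 1 with miR-27a against control, beside 3.07% of all genes (9 at an unadjusted p under 0.05, 5 by DESeq2 and 2 by limma). Il2ra, the α chain of the IL-2 receptor, fell from 7315 ± 2629 to 3874 ± 2130 CPM (SD, n = 4 each), or by 0.98 on the log2 scale (SE 0.17, edgeR adjusted p = 0.00450). It kept its call in all 16 fits without 1 library, and its adjusted p was 0.235 without the block. The list's median was -0.49, against 0.02 over all genes. In the other mimics' comparisons with control (miR-23a, then miR-24) edgeR called 0, with medians of -0.27 and -0.57. At an unadjusted p under 0.05 there were 3 and 9, and DESeq2 called 0 and 3, as did limma. Compared with miR-23a, 3 of 17 were lower with miR-24, where 2.73% of genes were called lower: Cd4 (-0.77 ± 0.19, edgeR adjusted p = 0.0200), Bcl11b (-0.87 ± 0.22, 0.0242) and Gata3 (-0.69 ± 0.20, 0.0467). Between miR-27a and miR-24 edgeR called 5 of 17, beside 4.42% of all genes, and 4 were higher and 1 lower with miR-27a. They were Cd4, Bcl11b, Il7r, Runx2 and Cbfa2t3, with 0 called without the block and each lost in at least 5 of 16 fits without 1 library. Of the 3 that were lower with miR-24 than with miR-23a, none was called without the block, and each lost its call in at least 4 of 16 fits without 1 library.

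Among the 26 tested Nrf2 target genes, 2 fell and 0 rose with miR-23a against control, where 0.386% of genes were called lower. Nqo1, a quinone reductase, fell from 31.2 ± 21.5 to 9.14 ± 1.46 CPM (SD, n = 4 each), or by 1.75 on the log2 scale (SE 0.36, edgeR adjusted p = 0.0320). Its control mean includes control replicate 1, where 1 read equals 16.3 CPM. Fth1, the ferritin heavy chain, fell by 1.01 on the log2 scale (SE 0.22, edgeR adjusted p = 0.0478). The list's median was -0.21, against 0.04 over all genes. Nqo1 kept its call in 9 and Fth1 in 6 of 16 fits without 1 library, with adjusted p up to 0.211 and 0.255, and without the block 0 of 26 were called.

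Between miR-24 and miR-23a, 7 Nrf2 targets were higher with miR-24 and 0 lower, with a list median of 0.67 against 0.01 over all genes and 2.65% of genes called higher. Txnrd1, thioredoxin reductase, stood at 79.6 ± 12.8 against 27.4 ± 9.30 CPM (SD, n = 4 each; log2 difference 1.56 ± 0.26, edgeR adjusted p = 0.00203). Prdx1, a peroxiredoxin, stood at 169 ± 26.1 against 83.7 ± 25.6 CPM (1.05 ± 0.18, edgeR adjusted p = 0.00199). Txn1, thioredoxin, differed by 1.11 ± 0.20 (edgeR adjusted p = 0.00317) and Gsr, glutathione reductase, by 1.09 ± 0.22 (edgeR adjusted p = 0.00743). These 4 kept their calls in all 16 fits without 1 library. Nqo1, Slc7a11 and Fth1 did not, and without miR-24 replicate 2 the count was 4. Without the block 2 of 26 were called, Txnrd1 and Prdx1.

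With miR-27a, where Nfe2l2 was also lower, edgeR called 0 of 26 Nrf2 targets against control (4 at an unadjusted p under 0.05, 2 by DESeq2 and 0 by limma). Of them 17 had positive fold changes, and the median was 0.24, against 0.02 over all genes. Against miR-23a, 5 were higher with miR-27a and 0 lower, beside 1.99% of all genes called higher. They were Fth1 (1.14 ± 0.21, edgeR adjusted p = 0.00500), Txnrd1 (1.22 ± 0.27, 0.0148), Nqo1 (1.45 ± 0.34, 0.0260), Idh1 (1.75 ± 0.44, 0.0358) and Prdx1 (0.70 ± 0.18, 0.0364). Without the block 0 of 26 were called here. Fth1 kept its call in all 16 fits without 1 library, while Txnrd1 and Nqo1 lost it in 4 each and Idh1 and Prdx1 in 8 each. Of the 5, 4 were also among the 7 of the miR-24 comparison, which shares the miR-23a libraries. With miR-24 against control 1 of 26 rose, Txn1 (0.85 ± 0.21, edgeR adjusted p = 0.0295), and 1 fell, G6pdx of the pentose phosphate pathway (-1.63 ± 0.27, edgeR adjusted p = 0.00256). In that comparison 2.32% of all genes were called higher and 2.25% lower. Of 8 Nrf2 regulators and partners, edgeR called 0 with miR-27a or miR-23a against control (1 and 3 at an unadjusted p under 0.05, 0 and 2 by DESeq2, 0 by limma) and 1 with miR-24, the repressor Bach2 (-0.71 ± 0.19, edgeR adjusted p = 0.0406). With miR-24 against control, G6pdx kept its call in all 16 fits without 1 library, Txn1 lost it in 6 and Bach2 in 10 (adjusted p up to 0.111 and 0.151). Without the block only G6pdx of these 3 was called.

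**Figure D4:**
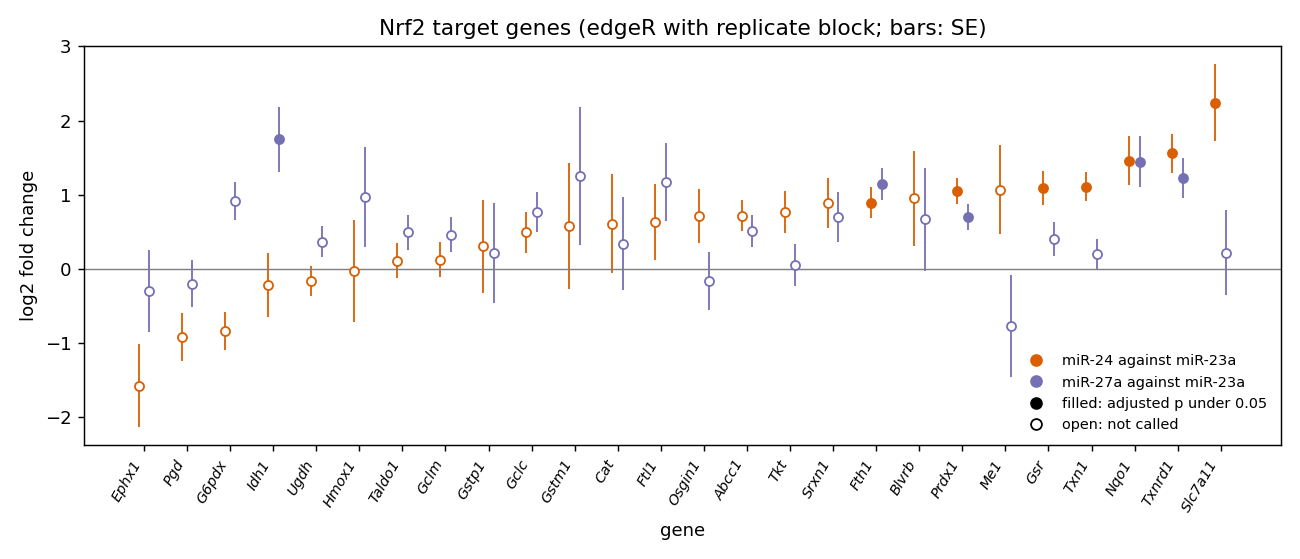
Log2 differences of the 26 tested Nrf2 target genes for miR-24 and miR-27a, each against miR-23a, from the edgeR fit with the replicate block. Points are estimates, bars are SE, and filled points have an adjusted p under 0.05. Of these, 7 are filled for miR-24 and 5 for miR-27a, all above 0.

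Around Pparg, 14 of 19 listed PPAR target genes were tested. With miR-27a against control 1 rose and 1 fell, where 1.75% of all genes were called higher and 1.32% lower. Acsl1, an acyl-CoA synthetase, went from 22.8 ± 10.1 to 55.8 ± 16.3 CPM (1.35 ± 0.32, edgeR adjusted p = 0.0285). Angptl4, a lipase inhibitor, went from 10.8 ± 5.94 to 2.76 ± 1.08 CPM (-1.59 ± 0.41, edgeR adjusted p = 0.0410; SD, n = 4 each). Both control means include control replicate 1, where 1 read equals 16.3 CPM. The median of the list was 0.16, against 0.02 over all genes. Of 8 PPAR coregulators, 1 rose and 0 fell, Ppargc1b (1.64 ± 0.44, edgeR adjusted p = 0.0488). These calls were lost without the block, and in 5 (Acsl1), 10 (Angptl4) and 12 (Ppargc1b) of 16 fits without 1 library. With miR-24 against control, where 2.25% of all genes were called lower, Cpt1a of fatty acid oxidation fell (-0.96 ± 0.20, edgeR adjusted p = 0.0104). This call was lost in 3 of 16 fits without 1 library. With miR-23a edgeR called 0 of 14 (0 at an unadjusted p under 0.05, and 0 by DESeq2 and limma).

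Around Rxra, edgeR called 0 of 12 tested RXR family members and partner receptors with any mimic against control, and so did DESeq2 and limma. At an unadjusted p under 0.05 there were 4, 3 and 4 for miR-27a, miR-23a and miR-24. The median log2 fold changes were 0.43, 0.69 and 0.33, against 0.02, 0.04 and 0.04 over all genes. Of 6 tested retinoid response genes, 1 rose and 1 fell with miR-27a against control, where 1.75% of all genes were called higher and 1.32% lower. Stra6, the retinol carrier receptor, rose from 10.7 ± 8.91 to 108 ± 123 CPM (2.94 ± 0.72, edgeR adjusted p = 0.0436), and Ccr9, a gut-homing receptor, fell from 29.1 ± 34.9 to 10.7 ± 5.35 CPM (-1.43 ± 0.34, edgeR adjusted p = 0.0285; SD, n = 4 each). Both control means include control replicate 1, where 1 read equals 16.3 CPM. With miR-24 against control 1 of 6 rose and 2 fell, where 2.32% of all genes were called higher and 2.25% lower. Stra6 rose (2.69 ± 0.68, edgeR adjusted p = 0.0424), and Dhrs3 and Itga4 fell. The list's median was -0.13, against 0.04 over all genes. Dhrs3 lost this call in 3 and Itga4 in 10 of 16 fits without 1 library. Stra6 lost its miR-27a call in 11, its miR-24 call in 9 and Ccr9 its call in 4 of 16 fits without 1 library, and without the block 0 of 6 were called with either mimic.

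Of 28 other reported miR-27 targets, 24 were tested, and 21 of these held a miR-27a site in the longest UTR, 11 of them an 8mer. With miR-27a against control 4 fell and 0 rose, where 1.32% of all genes were called lower and 1.75% higher. Of the 24, 18 had negative fold changes, and the median was -0.40, against 0.02 over all genes. Against the same control libraries, 15 were negative with miR-23a and 16 with miR-24. The median with miR-24 was -0.18, against 0.04 over all genes. The median difference of miR-27a was -0.28 from miR-23a and -0.09 from miR-24, against -0.03 over all genes in each. Il10, the anti-inflammatory cytokine, stood at 30.8 ± 34.7 against 196 ± 115 CPM (-2.88 ± 0.42, edgeR adjusted p = 0.00262). Bmi1, a Polycomb protein of T helper 2 memory, stood at 52.8 ± 14.7 against 122 ± 19.4 CPM (-1.19 ± 0.23, edgeR adjusted p = 0.00848). Hipk2, a stress kinase, stood at 245 ± 95.8 against 525 ± 23.2 CPM (-1.14 ± 0.24, edgeR adjusted p = 0.0149). Ccng1, cyclin G1, stood at 704 ± 228 against 1256 ± 249 CPM (-0.86 ± 0.20, edgeR adjusted p = 0.0250; SD, n = 4 each).

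Il10 kept its call in all 16 fits without 1 library, and Bmi1 lost it only without control replicate 3 (edgeR adjusted p = 0.0565). Hipk2 lost it without control replicate 3 or miR-27a replicate 1, 2 or 3, and Ccng1 without these or control replicate 4 (largest adjusted p 0.106 and 0.135). Without the block edgeR called 0 of 24 (6 at an unadjusted p under 0.05, a share not taken over all genes without the block). With it DESeq2 called 7 and limma 4 in either direction. Hipk2 also fell with miR-24 (-1.08 ± 0.23, edgeR adjusted p = 0.0146), as did Foxo1 (-0.73 ± 0.18, edgeR adjusted p = 0.0293), a reported target of miR-24 and miR-27. In that comparison 2.25% of all genes were called lower. Hipk2 lost this call in 2 and Foxo1 in 5 of 16 fits without 1 library, and without the block 0 of 24 were called with miR-24. With miR-23a against control edgeR called 0 of 24 (9 at an unadjusted p under 0.05, 0 by DESeq2 and limma), with a median of -0.28, against 0.04 over all genes. The log2 difference of Il10 with miR-27a was -2.53 ± 0.40 from miR-23a and -1.69 ± 0.39 from miR-24 (edgeR adjusted p = 0.00273 and 0.0219). The first call was kept in all 16 fits without 1 library and the second was lost in 5, and neither was made without the block.

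**Figure D5:**
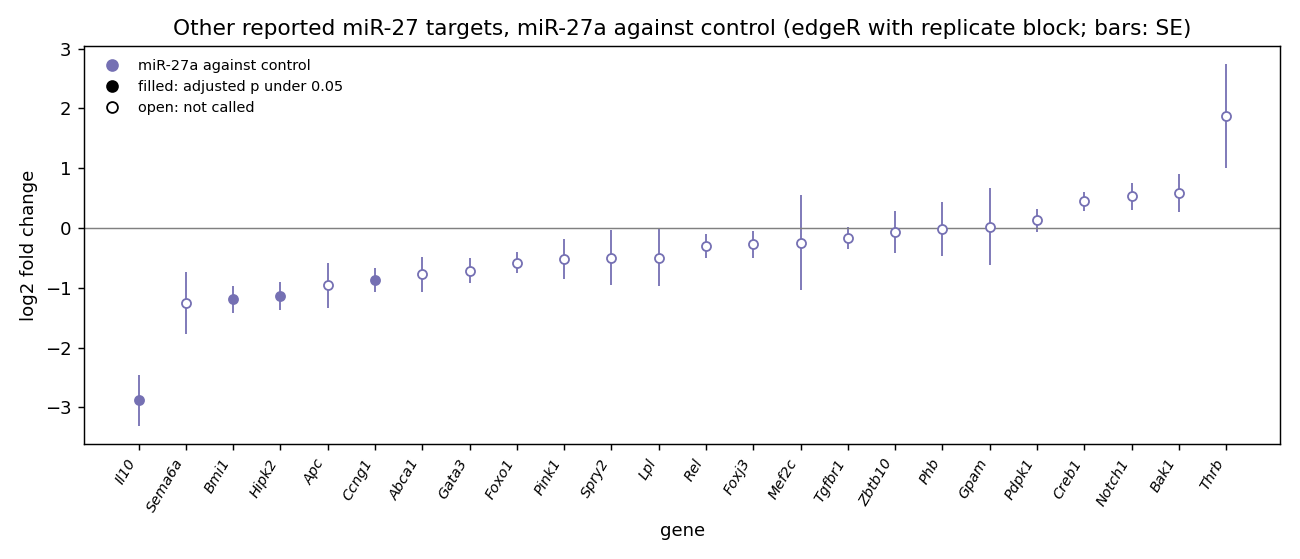
Log2 fold changes of 24 other reported miR-27 targets, miR-27a against control, from the edgeR fit with the replicate block. Points are estimates, bars are SE, and filled points have an adjusted p under 0.05. Il10, Bmi1, Hipk2 and Ccng1 are filled, all below 0.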

How the data were processed

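Per the labels' protocols, libraries were made from 1 ng of RNA with NuGEN Ovation kits and read as 50-nt single ends, 4 to a lane. The authors deposited raw read counts per gene symbol, 1 file per library, with 23337 genes and 5 summary lines (64.6% to 77.6% of all reads), which were left out. TopHat, Bowtie2, DESeq and the mm10 build are named, without versions, per the submitters' processing notes. The counter, annotation and strand setting are not given in the sources used here.

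The tests used edgeR 4.0.16 in R 4.3.3 (filterByExpr by group, TMM, robust quasi-likelihood fit, two-sided, Benjamini-Hochberg over 12952 genes, threshold 0.05), checked on simulated data. Alternatives used DESeq2 1.42.0 and limma 3.58.1. A prior count of 2 was added for log2-CPM, and CPM were scaled with TMM factors.

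The replicate number was a block, as the choice of these genes asked. Deviations from the group means were correlated between same-numbered libraries over 4746 genes. All 4 correlations exceeded 0.1 for control with miR-27a (0.198 to 0.611) and for miR-23a with miR-24 (lowest 0.350) and miR-27a (lowest 0.257). Not all 4 exceeded 0.1 for control with miR-23a (lowest -0.12) and miR-24 (lowest 0.0304), nor for miR-24 with miR-27a (lowest -0.0072). Libraries of different numbers were not compared, and the control mean held control replicate 1. These values therefore cannot show whether the numbers mark matched libraries.

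The genes and the lists, written from general knowledge, were chosen with earlier results of these data known. Named were the 5 genes, 6 direct partners, up to 4 called genes per list and comparison by smallest adjusted p, and the 2 genes most correlated with each of the 5 (mean log2-CPM of at least 3). Beyond this rule, all called genes are named for 3 counts of 5 or 7, chosen after their values were seen, and some called list genes are not named.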

Additional observations from a re-analysis of the deposited data

Results flagged for a closer look

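Among 188 groups of 4 libraries, from the 47 named genes, 6 had a library whose gap to the nearest other exceeded Dixon's 95% critical value for 4 values. Chance gives about 1 in 20 groups, and none of the 6 is in Fbxw7, Runx1, Nfe2l2, Pparg or Rxra. Of the miR-27a libraries, Il2ra was 7036 CPM in replicate 4 against 2415 to 3147 in the others, Cbfb was 406 CPM in replicate 2 against 327 to 330, and Acsl1 was 80.0 CPM in replicate 1 against 44.8 to 50.7. Of the miR-23a libraries, Gsr was 87.0 CPM in replicate 4 against 45.0 to 50.5, and Rara was 90.0 CPM in replicate 1 against 68.3 to 70.8. In control replicate 3, Runx2 was 174 CPM against 130 to 136. The cause was not tested.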

How the results depend on the processing

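The direction of all called values of the 5 genes held under every alternative run, and the report gives the fits without 1 library in which their calls ended. Without the replicate block, the genes called over all genes were 22 for miR-27a, 17 for miR-23a and 110 for miR-24 against control, 71 and 114 for miR-27a against miR-23a and miR-24, and 142 for miR-24 against miR-23a, with 2 Nrf2 targets and 0 other miR-27 targets called. In the main fit these were 398, 55, 591, 382, 572, 697, 7 and 4. Every call without the block was also made with it. In the same order, no block and no control replicate 1, chosen after seeing the data, gave 29, 15, 109, 70, 138, 148, 2 and 0. DESeq2 gave 951, 357, 1029, 703, 1005 and 1068. With only the compared groups, the count was 1918 for miR-27a against control, 162 for miR-27a against miR-24, and 8 other miR-27 targets. With limma sample weights, it was 32 for miR-23a against control, 991 for miR-27a against miR-24 and 458 for miR-24 against miR-23a. The alternatives for the 2 list counts were added after seeing the data.

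Leaving out each library gave 50 (without control replicate 3) to 1001 (control replicate 2) for miR-27a, 11 (control replicate 3) to 338 (control replicate 2) for miR-23a and 122 (control replicate 3) to 1506 (miR-24 replicate 1) for miR-24 against control. It gave 127 (miR-27a replicate 3) to 549 and 191 (miR-24 replicate 3) to 736 for miR-27a against miR-23a and miR-24, 266 (miR-23a replicate 3) to 788 for miR-24 against miR-23a, 4 to 8 Nrf2 targets and 1 to 5 other miR-27 targets. Scaling moved the split of higher and lower calls: for miR-24 against control from 300 and 291 to 359 and 222 with RLE, for miR-27a against miR-24 from 339 and 233 to 266 and 299 with RLE and 491 and 514 with DESeq2, and for miR-23a against control from 5 and 50 to 168 and 189 with DESeq2. In the transcript with the fewest sites, Fbxw7, Runx1 and Rxra had 0 miR-27a sites. The cause of these changes was not tested. Control replicate 1, with 51474 gene reads, limits what can be seen of Pparg and Rxra in the control group.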
